A study of Mus musculus with 8 samples.

Results

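The galectins were followed in cells sorted from mouse small intestine organoids in which wild-type (WT) and cancer cells grew apart or together. The members are the genes Lgals1, Lgals2, Lgals3, Lgals4, Lgals6, Lgals8 and Lgals9, taken from the deposited read count table by symbol. Of the 7 members, 6 were among the 13420 genes of the table, and Lgals6 was not analysed here. Of these 6, 5 passed the filter on low counts and were among the 5264 tested genes, and Lgals8 did not pass. The members were taken as a gene family, with earlier results of these data known.

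WT organoids came from C57BL/6 mice that carry mTmG, a reporter that marks membranes with a red protein (mTomato). Cancer organoids carried alleles that include Villin-CreERT2, Apc fl/fl and Tr53 fl/R172H, the last being the label's spelling of the Trp53 alleles, with the strain label C57BL/6 (F6) and the green protein Dendra2. Villin drives this Cre in intestinal epithelium only once tamoxifen is given, and the cancer culture is a single organoid line, so a difference between cancer and WT cells is also a difference between 2 lines and their labels. Clumps of both cultures were mixed at 2 parts WT to 1 part cancer, and live cells of each colour were sorted on day 3 from pure and from mixed cultures. CEL-Seq, which reads the 3' ends of mRNAs, gave 2 libraries for each of the 4 groups: WT cells of pure (A01 and A05) and of mixed cultures (A02 and A06), and cancer cells of pure (A03 and A07) and of mixed cultures (A04 and A08). The labels give codes A01 to A08, called wells here for their form alone, and do not say that they are wells. The labels also say nothing of separate cultures, so the p-values measure the spread between libraries, which may be technical.

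Galectins are lectins that bind galactose-bearing sugars on glycoproteins and glycolipids. They are made in the cytosol and leave the cell without a signal peptide, and outside the cell they cross-link receptors, mucins and matrix proteins. Lgals1 and Lgals2 encode galectins with a single sugar-binding domain that act as dimers. Lgals4, Lgals8 and Lgals9 encode tandem-repeat galectins with a pair of different domains, and Lgals3 encodes the chimera type, a single domain with a long tail through which it forms oligomers. In the gut, galectin-4 is known as a brush border protein that holds apical membrane rafts together, and galectin-3 is made by many epithelia and by many tumours.

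The shallowest library, A02 of mixed WT cells, held 73109 reads and the deepest, A04 of mixed cancer cells, 4733121, and 26.1% of the tested genes had no read in A02. Values are CPM, reads scaled to a common library size with TMM factors, and 3 reads, the upper 95% limit that a count of 0 allows, correspond to 39.3 CPM in A02 and 0.587 CPM in A04. All 9 epithelial markers had reads in each of the 4 groups. Of 16 immune markers 6 were in the table, and they summed to 0 to 71.8 CPM. Of 12 fibroblast and muscle markers 3 were in it, at up to 7.31 CPM, and the single one of 5 endothelial markers reached 15.6 CPM. The enterocyte markers summed to between 1661 and 1953 CPM in the WT libraries and to at most 31.5 CPM in the cancer libraries. Stem cell markers summed to 418 to 579 CPM in pure and 78.6 to 195 CPM in mixed WT libraries. In the cancer libraries they summed to 89.2 to 135 CPM when pure and 233 to 420 CPM when mixed. The reads do not check the alleles, because 3' ends lie away from the changed parts: Trp53 was read at 13.1 to 324 CPM in WT and 5.25 to 71.8 CPM in cancer libraries, and Apc at up to 4.53 and 10.5 CPM.

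The genomic places of the members are given on GRCm38. Lgals2 (chr15:78850860-78855529, minus strand) and Lgals1 (chr15:78926725-78930465, plus strand) lie 71.2 kb apart, with 7 annotated genes between them. Lgals3 is at chr14:47367751-47386160 (plus), Lgals4 at chr7:28833854-28841708 (plus), Lgals8 at chr13:12439415-12464944 (minus) and Lgals9 at chr11:78962974-78984946 (minus). All are protein coding. Lgals2 overlaps Cdc42ep1 and Lgals8 overlaps Heatr1 on the other strand, and whether the counting used strand is not given in the sources used here. No window of 50 bases in the last 500 of the transcripts of these 6 genes was found in a transcript of another gene. The annotation searched held no Lgals6, so the windows were not compared with it and reads shared with Lgals4 were not checked.

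The stretches before the starts of Lgals2 and Lgals3 are shown because these were the most abundant members in WT and in cancer libraries respectively. They come from RefSeq promoter windows on GRCm38.p6, which held 5 of the 7 members. Capitals mark letters that match a motif on either strand, and the motifs were chosen with the values of the genes known. They were the half-sites of the enterocyte factors HNF4 (CAAAGT) and HNF1 (GTTAAT), a site of the intestinal factor CDX (TTTATG), the GC box (GGGCGG), the AP-1 site (TGANTCA), and the core of the hypoxia response element (ACGTG and GCGTG). The Lgals2 stretch is the 250 bases chr15:78855530-78855779 (minus strand). The Lgals3 stretch is the 203 bases chr14:47373610-47373812 (plus strand), which stop at the first exon of another annotated transcript. The RefSeq start of Lgals3 lies inside the span of the gene given above.
Lgals2: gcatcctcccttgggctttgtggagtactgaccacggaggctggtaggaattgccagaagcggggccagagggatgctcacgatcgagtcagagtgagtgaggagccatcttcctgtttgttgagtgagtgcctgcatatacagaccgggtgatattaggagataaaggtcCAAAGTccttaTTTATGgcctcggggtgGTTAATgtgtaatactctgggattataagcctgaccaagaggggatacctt
Lgals3: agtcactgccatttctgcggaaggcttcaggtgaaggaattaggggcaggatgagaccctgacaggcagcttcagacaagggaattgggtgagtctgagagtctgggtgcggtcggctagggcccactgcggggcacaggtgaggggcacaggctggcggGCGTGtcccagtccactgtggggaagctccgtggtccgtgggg
The Lgals2 stretch held CAAAGT from 79 to 74, TTTATG from 68 to 63 and GTTAAT from 51 to 46 bases before the start. These letters occur in 12.6%, 10.8% and 6.43% of all 32851 promoter windows of 250 bases. None of the 3 was found in the windows of Lgals3, Lgals4, Lgals8 or Lgals9. Lgals3 held GCGTG from 90 to 86 bases before the start, as Lgals4 did from 19 to 15, and 28.2% of all windows hold these letters. GGGCGG (32.7% of all windows) was found only for Lgals3, from 7 to 2 bases before the start and so past the printed stretch. TGANTCA (6.75% of all windows) and ACGTG (16.6%) were found in none of the 5 windows. A match of letters is a description and does not show a bound site.

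**Figure D1:**
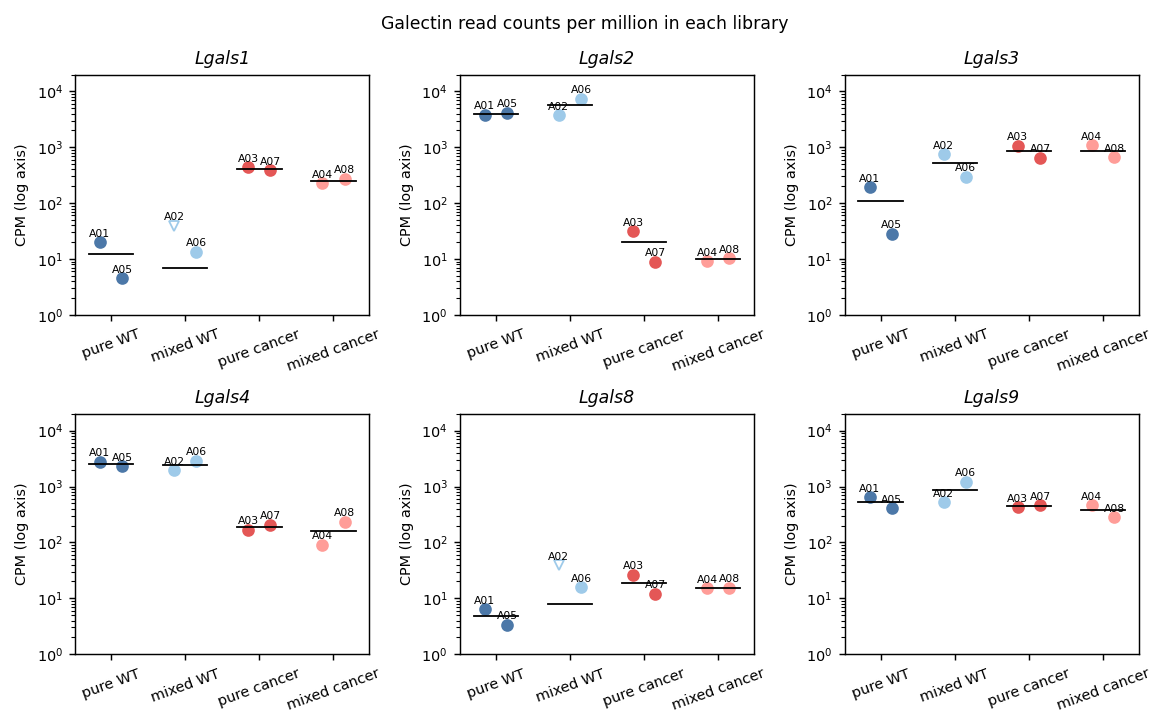
Each panel plots 1 galectin, with CPM on a log axis against the 4 groups, a filled point for each library and a bar at the mean of 2 libraries. Open triangles stand at the CPM of 3 reads for a library with 0 reads (A02 for Lgals1 and Lgals8). Lgals2 and Lgals4 lie higher in all 4 WT libraries, Lgals1 lies higher in all 4 cancer libraries, and Lgals3 is lowest in the pure WT libraries (28.1 and 194 CPM).

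The first question was how cancer cells and WT cells differ in their galectins. In pure cultures, Lgals1 and Lgals3 were higher and Lgals2 and Lgals4 lower in cancer than in WT cells, so 4 of the 5 tested members were called, against 9.95% of all tested genes (5.11% higher and 4.84% lower; edgeR, Benjamini-Hochberg adjusted p under 0.05). Between cells sorted from mixed cultures, Lgals1 was higher and Lgals2 and Lgals4 were lower in cancer cells, 3 of 5 against 6.42% of all genes (2.01% higher and 4.41% lower). Over the mean of both comparisons 4 of 5 were called against 14.2% of all genes, Lgals1 and Lgals3 higher and Lgals2 and Lgals4 lower (6.8% and 7.37% of all genes). Without overlap between all 4 cancer and all 4 WT libraries, Lgals1 lay higher and Lgals2 and Lgals4 lower, as did 8.24% and 8.11% of all tested genes. Since the samples are bulk RNA, more cells with a galectin and more of its mRNA per cell cannot be told apart.

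Lgals2, a galectin of the mature intestinal and gastric epithelium, had the largest difference of the family. It was read at 3799 and 4127 CPM in the pure WT libraries and at 3762 and 7426 CPM in the mixed WT libraries. In the pure cancer libraries it was at 31.5 and 8.98 CPM and in the mixed cancer libraries at 9.20 and 10.4 CPM. Every WT library lay far above every cancer library, and the cancer values rest on 6, 3, 47 and 2 reads. The log2 fold change of pure cancer against pure WT cells was -7.76 ± 0.62 (SE, adjusted p = 2.35e-08, edgeR with Benjamini-Hochberg adjustment). In mixed cultures it was -9.21 ± 0.64 (edgeR adjusted p = 2.20e-09). In barcode counts, which end at 256 per gene and library and stood at 256 in both pure WT libraries, the values were -4.33 and -6.52, and Lgals2 was called in both (edgeR adjusted p = 0.00143 and 3.59e-07). In transcript estimates the mixed value was -8.11. The pure value was -8.82 without A03 and -7.07 without A07, and the mixed value was -8.58 without A06.

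Lgals4, the brush border galectin, moved the same way but kept more of its level in cancer cells. Its values were 2757 and 2287 CPM in the pure and 1953 and 2877 CPM in the mixed WT libraries, and 168 and 207 CPM in the pure and 90.2 and 233 CPM in the mixed cancer libraries. The WT and cancer libraries did not overlap. The log2 fold change was -3.74 ± 0.49 in pure cultures (SE, edgeR adjusted p = 1.41e-05) and -3.99 ± 0.50 in mixed cultures (edgeR adjusted p = 8.51e-06). In barcode counts the pure difference was -1.13 with an edgeR adjusted p = 0.472, and Lgals4 stood at 253 and 256 barcodes in the pure WT libraries. The mixed difference was -3.09 in barcode counts and -4.70 without A08, called both times (edgeR adjusted p = 0.0212 and 1.29e-10). The enterocyte markers summed lower with Lgals2 and Lgals4 in the cancer libraries. So did the Paneth, goblet and enteroendocrine markers, at 473 to 1155 CPM in cancer and 3172 to 6578 CPM in WT libraries. The part of either list in the differences was not tested.

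Lgals1, a dimeric galectin best known from mesenchymal cells and from tumours, went the other way. It had 20.1 and 4.50 CPM in the pure and 0 and 13.6 CPM in the mixed WT libraries, and 441 and 389 CPM in the pure and 228 and 275 CPM in the mixed cancer libraries. The highest WT library, A01, thus lay far below the lowest cancer library, A04. The log2 fold change was 5.14 ± 0.67 in pure cultures (SE, edgeR adjusted p = 1.23e-05) and 4.51 ± 0.80 in mixed cultures (edgeR adjusted p = 0.000517). The mixed WT value rests on 6 reads in A06 and none in A02, where up to 39.3 CPM could have gone unseen. Without A06 the mixed value became 11.3 (edgeR adjusted p = 0.00838), a fit against a lone WT library with no read and so no measure of the size. The pure value was 6.44 without A01, 4.43 without A05 and 4.19 in barcode counts, each of them called. Of 12 fibroblast and muscle markers 3 were in the table, and they summed to at most 7.31 CPM in any library. Whether such cells add to the Lgals1 reads was not tested.

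Lgals3, the chimera galectin, passed the test in pure cultures and did not in mixed cultures. Its values were 194 and 28.1 CPM in the pure and 747 and 299 CPM in the mixed WT libraries, and 1071 and 646 CPM in the pure and 1074 and 669 CPM in the mixed cancer libraries. The pure WT libraries lay below all others, and the mixed WT libraries overlapped the cancer libraries through A02. The log2 fold change was 2.96 ± 0.65 in pure cultures (SE, edgeR adjusted p = 0.00331), and in mixed cultures 0.80 ± 0.62 (95% interval -0.48 to 2.08, edgeR adjusted p = 0.591). The pure value was 4.86 without A01 and 2.20 without A05 (edgeR adjusted p = 5.48e-08 and 0.0230), so its size rests on which pure WT library is kept. The mean of both was 1.88 ± 0.44 (edgeR adjusted p = 0.00394). Without A01 it was 2.81. In barcode counts it was 1.13 with an edgeR adjusted p = 0.163. Lgals3 stood there at the limit of 256 in A04.

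Lgals9, a tandem-repeat galectin known from immune regulation, was called in none of the comparisons. It had 640 and 407 CPM in the pure and 524 and 1226 CPM in the mixed WT libraries, and 425 and 458 CPM in the pure and 460 and 285 CPM in the mixed cancer libraries. Mixed WT library A06 was the highest and mixed cancer library A08 the lowest. Cancer and WT cells differed by -0.24 on the log2 scale in pure cultures (95% interval -1.21 to 0.72, edgeR adjusted p = 0.847) and by -1.24 in mixed cultures (95% interval -2.22 to -0.26, edgeR adjusted p = 0.145). Without A02, the shallowest library, the mixed difference was -1.70 and passed the test (edgeR adjusted p = 0.0296), and without A06 it was -0.42 (adjusted p = 0.668). With a block for wells A01 to A04 against A05 to A08, chosen after seeing the data, it was -1.26 and passed (edgeR adjusted p = 0.0405).

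Lgals8, a tandem-repeat galectin that recognises damaged endosomes, was near the limit of detection. WT cells gave 7 and 6 reads when pure and 0 and 7 when mixed, and cancer cells gave 5 and 4 when pure and 77 and 3 when mixed. In the same order these made 6.41 and 3.37, 0 and 15.9, 26.2 and 12.0, and 15.1 and 15.6 CPM. A difference was not detectable at this depth: with no filter on low counts, pure cancer against pure WT gave 1.78 on the log2 scale (95% interval -0.47 to 4.04, edgeR adjusted p = 0.546).

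**Figure D2:**
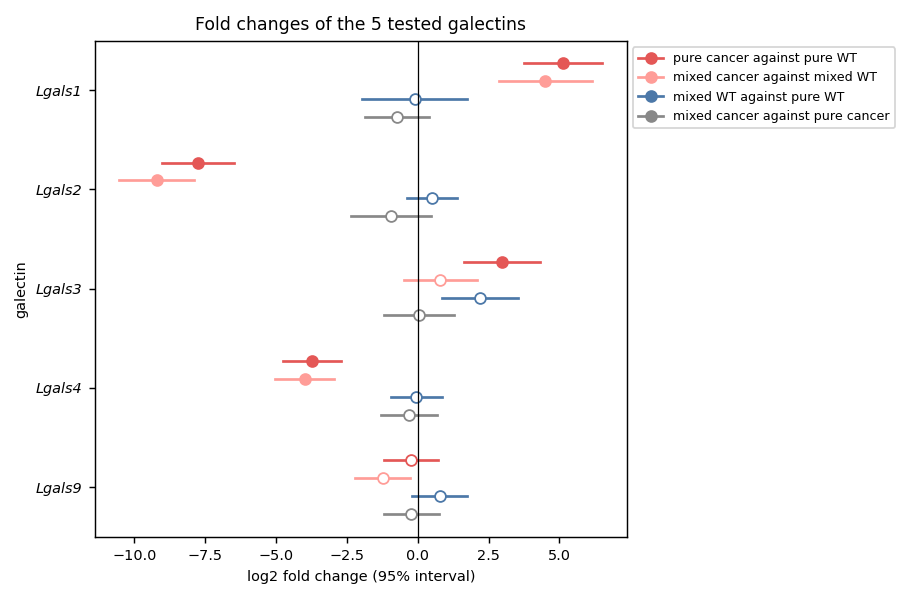
For the 5 tested galectins, points give the log2 fold change of 4 comparisons on the horizontal axis and lines the 95% interval. Filled points passed an adjusted p of 0.05 (edgeR). Lgals1, Lgals2 and Lgals4 are filled in both comparisons of cancer with WT cells, Lgals3 in pure cultures alone, and no point is filled in the comparisons of mixed with pure cells.

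The second question was what mixing changed in each kind of cell. In WT cells no galectin was called, against 0.741% of all genes (0.646% higher and 0.095% lower). At an unadjusted p under 0.05, 1 of the 5 tested members passed, Lgals3, against 9.67% of all genes, and with DESeq2 it passed after adjustment. Lgals3 was read at 747 and 299 CPM in mixed against 194 and 28.1 CPM in pure WT cells, without overlap, as in 15% of all tested genes in this direction. The log2 fold change was 2.20 ± 0.65 (SE, 95% interval 0.86 to 3.53, edgeR adjusted p = 0.143). Its adjusted p ranged from 3.70e-05 to 0.881 over 16 alternative settings, and the call was made in 8 of them. DESeq2 gave 2.34 (adjusted p = 0.0343), and edgeR on the 4 WT libraries alone gave 2.23 (adjusted p = 0.00830).

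A single library decided the size and the call of this Lgals3 difference more than once. Without pure WT library A01 the edgeR log2 fold change was 4.19 (adjusted p = 3.70e-05), and without A05 it was 1.44 (adjusted p = 0.881). Without mixed WT library A02 it was 1.40 (adjusted p = 0.399). Leaving out a cancer library changes the shared estimate of the spread, the filter and the TMM factors. For A03, A04, A07 and A08 in turn this gave 2.08, 2.21, 2.14 and 2.14, and Lgals3 was called each time. Without mixed WT library A06 the value was 2.68, and Lgals3 was not called. The direction was upward in each of these fits.

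Lgals3 was also higher in the lower-numbered well of every group, by 6.90-fold between A01 and A05, 2.50-fold between A02 and A06, 1.66-fold between A03 and A07 and 1.61-fold between A04 and A08. The labels do not say what wells A01 to A04 share. Taken within those wells, mixed over pure WT cells was 3.85-fold, and within A05 to A08 it was 10.6-fold. The same ratios for cancer cells were 1.00-fold and 1.04-fold. With the block for these wells, the Lgals3 difference on mixing of WT cells was 2.49 and passed the test (edgeR adjusted p = 7.00e-05).

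The other members differed less on mixing of WT cells, with wide intervals. Lgals2 differed by 0.50 on the log2 scale (95% interval -0.37 to 1.37), Lgals4 by -0.06 (-0.96 to 0.84), Lgals9 by 0.77 (-0.19 to 1.73) and Lgals1 by -0.10 (-1.95 to 1.75). Lgals1, the member at 228 to 441 CPM in cancer libraries, was at 0 and 13.6 CPM in mixed WT and at 20.1 and 4.50 CPM in pure WT libraries. These pure and mixed WT values overlap. The edgeR adjusted p of these 4 members ran from 0.654 to 0.997.

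In cancer cells no galectin was called on mixing by edgeR, nor any at an unadjusted p under 0.05 or by DESeq2, against 0% of all genes by edgeR and 1.31% unadjusted. Lgals3 differed by 0.03 on the log2 scale (95% interval -1.21 to 1.27), Lgals4 by -0.31 (-1.29 to 0.67) and Lgals9 by -0.23 (-1.20 to 0.74). Lgals2 differed by -0.94 (-2.36 to 0.48). Lgals1 had 228 and 275 CPM in mixed against 441 and 389 CPM in pure cancer libraries, which do not overlap, as in 10.8% of tested genes in this direction. Its log2 difference was -0.73 ± 0.55 (SE, 95% interval -1.88 to 0.41, edgeR adjusted p = 1).

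Whether mixing acted differently on WT and on cancer cells was tested by the difference of these changes. No member was called, against 0.076% of all genes, and 1 of 5 passed at an unadjusted p under 0.05, against 7.28%. For Lgals3 the change in WT cells exceeded that in cancer cells by 2.16 ± 0.87 (SE, 95% interval 0.35 to 3.97, edgeR adjusted p = 0.570, unadjusted p = 0.0211). DESeq2 called none. The difference was 4.10 without A01 (edgeR adjusted p = 0.00217), 1.34 without A05 (adjusted p = 1.00) and 1.36 without A02 (adjusted p = 0.703). With the well block it was 2.47 and passed (edgeR adjusted p = 0.0221). The same contrast states how far the cancer-to-WT difference of Lgals3 in pure cultures exceeded that in mixed cultures.

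The make-up of the galectin mRNA differed between the cell kinds. Reads of all 6 members summed to 7137 ± 396 CPM in pure and 9422 ± 3444 CPM in mixed WT cells, and to 1942 ± 312 CPM in pure and 1683 ± 274 CPM in mixed cancer cells (SD, n = 2). Lgals2 took the largest share in WT cells, 55.7% ± 6.34 in pure and 58.2% ± 6.21 in mixed cultures, followed by Lgals4 with 35.3% ± 2.70 and 26.1% ± 2.61. In cancer cells Lgals3 was first, with 43.5% ± 8.45 in pure and 51.1% ± 8.70 in mixed cultures. Lgals9 followed with 23.1% ± 4.91 and 21.8% ± 3.78, and Lgals1 with 21.5% ± 1.57 and 15.3% ± 4.47. Shares are of reads from 3' ends and were not divided by length. The first-ranked galectin of each of the 4 groups was the same per kilobase of transcript, in barcodes and in transcript estimates. In pure WT cells the mean barcode shares of Lgals2 and Lgals4 were 33.6% and 33.5%. Both stood at the limit of 256 in A05, where barcodes and the transcript estimates made from them do not rank them.

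Lgals3 took 2.62% and 0.410% of galectin reads in the pure WT libraries A01 and A05 and 10.7% and 2.52% in the mixed WT libraries A02 and A06. The exact 95% binomial interval was 8.20% to 13.6% in A02 and 2.11% to 2.98% in A06, and that of A01 was 2.28% to 2.99%, so A01 and A06 did not differ in this share beyond counting error. Such intervals cover counting error only. Lgals1 had none of 533 galectin reads in A02, which allows a share of up to 0.690%.

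**Figure D3:**
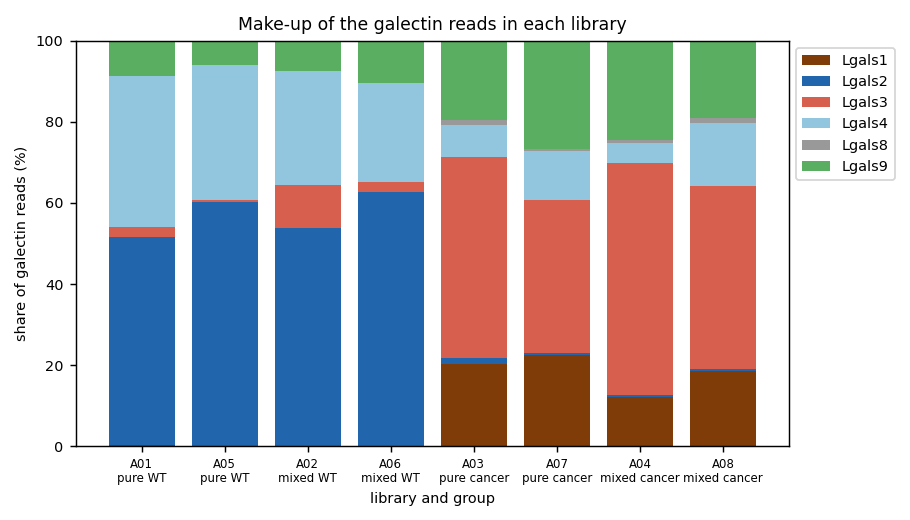
Stacked bars give the share of each of the 6 galectins in all galectin reads, in percent, for each library, ordered by group. Lgals2 and Lgals4 fill most of the 4 WT bars, and Lgals3, Lgals9 and Lgals1 fill most of the 4 cancer bars.

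Of the relatives outside the 7 members, Lgals7, the galectin of stratified epithelia, had 0 and 1 read in the pure and none in the mixed WT libraries, 8 and 7 reads in the pure and 42 and 1 in the mixed cancer libraries. It was left out by the filter. In pooled reads it was 82.1-fold higher in pure cancer than in pure WT cells, with a 95% counting interval of 12.6 to 3457. In mixed cultures it was at least 1.40-fold higher taking 3 reads over both WT libraries as the floor, and the lower 95% counting limit was 1.09-fold. With no filter the pure difference was 5.99 on the log2 scale (95% interval 2.92 to 9.07, edgeR adjusted p = 0.00539). The mixed difference did not pass (95% interval -0.42 to 12.6, edgeR adjusted p = 0.536). Lgals12, known from adipocytes, was at 11.9 and 21.4 CPM in pure WT and 5.25 and 0 CPM in pure cancer libraries. Lgalsl, which encodes a galectin-like protein thought not to bind lactose, was tested and not called in any of the 6 comparisons (edgeR adjusted p from 0.499 to 1).

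Galectins act through what they bind, and the glycoproteins known as their partners were read from a list of 32 genes, of which 22 were tested. Over the mean of pure and mixed cultures, 4 were higher and 5 lower in cancer cells, against 6.8% and 7.37% of all genes (edgeR). Their median log2 fold change was 0.51, against 0.04 over all tested genes. The 4 higher genes were Fn1, Itga3, Bsg and Slc3a2, which encode the matrix protein fibronectin, an integrin chain, basigin and the heavy chain of CD98. Fn1 had 103 ± 86.7 CPM in pure cancer against 1.02 ± 0.148 CPM in pure WT cells (SD, n = 2). The log2 fold change of Fn1 over both cultures was 5.53 ± 0.75 (SE, edgeR adjusted p = 6.95e-06).

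Itga3 was higher by 1.94 (edgeR adjusted p = 0.00236), Bsg by 1.495 (adjusted p = 0.000989) and Slc3a2 by 1.37 (adjusted p = 0.00684) on the same log2 scale. The 5 lower partners were the mucin Muc13, the microvillar cadherins Cdhr2 and Cdhr5, the adhesion molecule Ceacam1 and Lgals3bp. Muc13 was at 55.0 ± 14.4 CPM and Cdhr5 at 45.2 ± 9.86 CPM in pure WT cells (SD, n = 2). Neither had a read in the pure cancer libraries, where 3 reads are 15.7 CPM in A03 and 8.98 CPM in A07. Lgals3bp encodes a secreted glycoprotein that binds galectin-3. Its values were 465 and 477 CPM in the pure and 301 and 478 CPM in the mixed WT libraries, and 47.2 and 141 CPM in the pure and 156 and 36.3 CPM in the mixed cancer libraries. All 4 WT libraries lay above all 4 cancer libraries. Lgals3bp was thus lower in cancer cells, by -2.27 ± 0.59 in pure cultures (SE, edgeR adjusted p = 0.0131), where Lgals3 was higher.

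Of 16 genes of the brush border and of apical rafts, where galectin-4 works, 6 were tested. Over both cultures Myo1a, Anxa13 and Alpi were lower in cancer cells and Anxa2 was higher, against 7.37% and 6.8% of all genes (edgeR). Alpi, intestinal alkaline phosphatase, was at 413 ± 52.5 CPM in pure and 859 ± 83.4 CPM in mixed WT cells, and at 6.74 ± 5.31 CPM in pure and 0.978 ± 1.38 CPM in mixed cancer cells (SD, n = 2). The brush border motor Myo1a was at 116 ± 26.4 CPM in pure and 94.8 ± 22.9 CPM in mixed WT cells (SD, n = 2). It had no read in a cancer library. Anxa2 was higher in cancer cells by 2.30 ± 0.34 (SE, edgeR adjusted p = 2.08e-05).

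On mixing of WT cells, S100a10, the partner of annexin A2, was the only gene of the 4 lists called by edgeR, against 0.741% of all genes. The lists held 22 tested partners, 6 brush border genes, 16 sugar enzymes and 23 lysosome damage genes. A single call among them is close to the share of all genes and is no result about the lists. DESeq2 called 2 genes of these lists, both of the brush border list. S100a10 rose from 815 ± 242 to 2923 ± 1039 CPM, a log2 fold change of 1.84 ± 0.42 (SE, edgeR adjusted p = 0.0387). Anxa2 differed by 1.84 (edgeR adjusted p = 0.0734).

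Of 33 enzymes that build or cap the sugars galectins read, 16 were tested. Fut2 and B3gnt3 were higher and St3gal4 lower in cancer cells over both cultures, near the background of 14.2%. Fut2 adds terminal fucose, B3gnt3 extends chains with N-acetylglucosamine, and St3gal4 adds terminal sialic acid to galactose. Their log2 fold changes were 3.03, 1.46 and -1.86 (edgeR adjusted p = 0.0154, 0.0413 and 0.0103). Of 28 genes of the response to damaged lysosomes, in which galectin-3, galectin-8 and galectin-9 take part, 23 were tested and none was called in any of the 6 comparisons by edgeR or by DESeq2. At an unadjusted p under 0.05, 4 of these 23 passed over both cultures, against 24.7% of all genes.

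**Figure D4:**
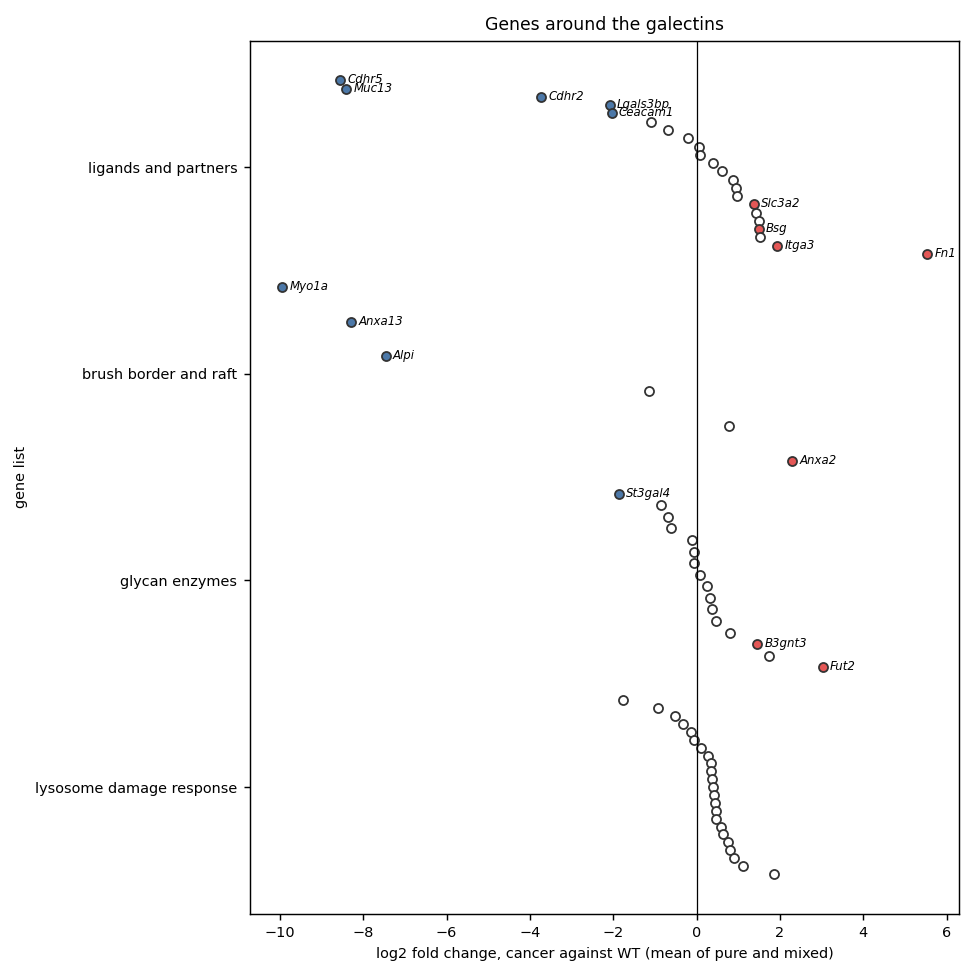
Each point is a tested gene of 4 lists around the galectins, placed by its log2 fold change of cancer against WT cells over the mean of pure and mixed cultures, and spread vertically by rank. Red points were called higher, blue points lower, and open points were not called (edgeR). Myo1a, Cdhr5, Muc13 and Anxa13 lie farthest to the left and Fn1 farthest to the right.

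The genes whose pattern was most like that of each called galectin were found among 2740 tested genes with a mean of at least 50 reads. Likeness was the root mean square difference of log2 CPM, centred on each gene's mean, over the 8 libraries, and it is a description. For Lgals2 they were Pycard, Dmbt1, Tm4sf5, Alpi and Tff3, at distances of 0.72 to 0.81, where Lgals2 itself spread by 4.18. For Lgals4 they were Phgr1, Atp1b1, Sord, Gstm3 and Pdlim1, at 0.50 to 0.76. For Lgals1 they were Msn, Bex1, Gm12603, Mal and Tubb6, at 0.78 to 0.90.

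For Lgals3 they were Ero1l, Tnfrsf12a, Egln3, Hilpda and Anxa2, at 0.59 to 0.76. Ero1l, Egln3 and Hilpda are known as hypoxia-induced genes, and Tnfrsf12a encodes the receptor of the cytokine TWEAK. Ero1l was at 51.5 ± 16.4 CPM in pure and 266 ± 68.7 CPM in mixed WT cells, and at 524 ± 68.0 CPM in pure and 434 ± 144 CPM in mixed cancer cells (SD, n = 2). Hilpda was at 22.8 ± 2.77, 133 ± 34.3, 221 ± 58.6 and 263 ± 34.7 CPM in the same order. Both were chosen for likeness to Lgals3, so their lowest values in pure WT cells, as Lgals3 had, are no separate result. With a prior count of 10, 4 of these 5 genes were again among the nearest 5 to Lgals3, and in barcode counts 3 were. These counts were 0 and 1 for Lgals4, 3 and 1 for Lgals2, and 2 and 4 for Lgals1, so the nearest genes depend on the scale.

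**Figure D5:**
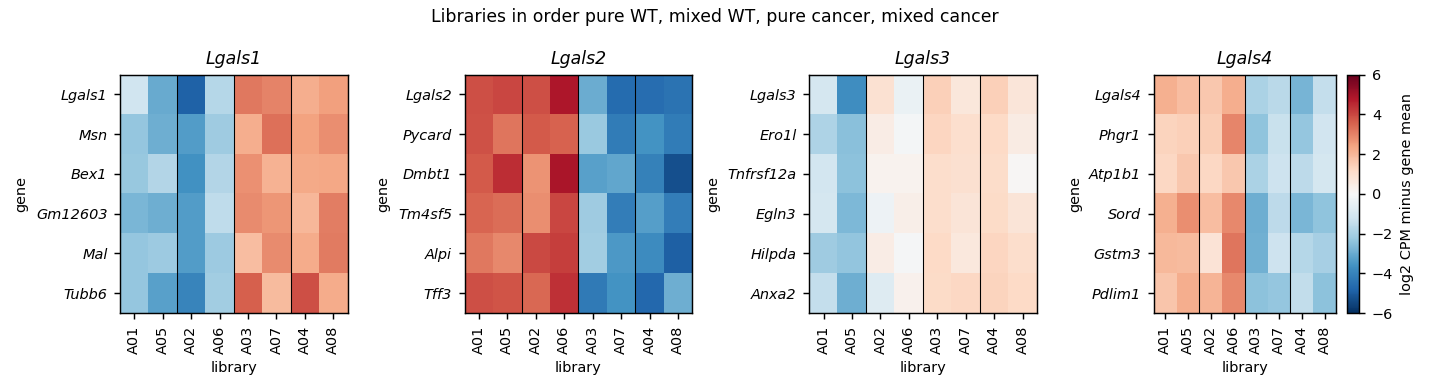
Each panel shows a galectin in the top row and its 5 nearest genes under it, with the libraries of WT cells on the left and those of cancer cells on the right, pure before mixed. Colour is log2 CPM minus the mean of the gene, from blue (low) to red (high). The Lgals3 panel is bluest in pure WT libraries A01 and A05. In the mixed WT libraries Lgals3 itself is at -0.413 in A06 and at 0.903 in A02, above cancer libraries A07 (0.695) and A08 (0.745).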

How the data were processed

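RNA of 8 sorted libraries, 2 per group, was measured by CEL-Seq. Per the study's methods, reads were aligned with BWA to the mm10 RefSeq transcriptome, reads with several equally good matches were dropped, and featureCounts assigned them to genes. The authors deposited read counts without normalization, which include amplification copies, barcode counts of molecule tags, and estimated counts of transcripts made from the barcodes. They also deposited a table of mixed against pure WT cells made with DESeq2 1.22.2, whose results were not used. Rows that are not mouse genes (2, with 1 read) were left out.

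Read counts were fitted in edgeR 4.0.16 (R 4.3.3) over all 8 libraries at once by quasi-likelihood, with filterByExpr at a minimum count of 10, TMM factors and p-values adjusted by Benjamini-Hochberg across 5264 tested genes. Calls are at an adjusted p under 0.05. The fit was tested on counts simulated with the spread estimated from these libraries and without a well effect. Such a simulation does not address whether the libraries of a group are technical repeats. Standard errors were taken as the size of the log2 fold change over the root of F. Comparisons were cancer against WT in pure, in mixed and over both, mixed against pure in each kind, and the difference of the latter changes. Comparisons share libraries. Alternatives were the barcode and transcript counts (rounded), RLE and upper-quartile factors, no filter and a minimum count of 50, the compared libraries alone, DESeq2 1.42.0, an unadjusted p, and each library left out. A block for wells was added after the data were seen.

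The members and the gene lists were chosen with earlier results of these data known. Named genes were all galectin relatives in the tables, called genes of 4 lists (at most 4 per comparison and direction), the 5 genes nearest to each called galectin, and the genes of the engineered alleles, of which 1 is not reported here. Ceacam1 fell outside this rule and was named after its value was seen. Depth per library ran from 73109 to 4733121 reads, so low genes are least certain in A02.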

Additional observations from a re-analysis of the deposited data

How the results depend on the processing

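Lgals1, Lgals2 and Lgals4 kept their direction between cancer and WT cells in pure, in mixed and over both cultures under every alternative, and Lgals1 and Lgals2 kept their calls. The first-ranked galectin of each of the 4 groups was the same on every scale tried. In pure WT library A05, though, Lgals2 and Lgals4 both stood at the barcode limit of 256, which does not rank them. The count of galectins called on mixing of WT cells was 0, and it was 1 with no filter, with only the 4 libraries compared, with DESeq2, at an unadjusted p and with the well block, and ranged from 0 to 1 over the libraries left out. For the difference of the mixing changes it was 1 at an unadjusted p and with the well block, and 0 to 1 over the libraries left out. The other counts of galectins stayed within 1.5 times their value. Calls over all genes were 39 on mixing of WT cells (2 to 118 over the alternatives other than the unadjusted p and the well block), 4 for the difference of the changes (1 to 32), 524 in pure cancer against pure WT cells (232 to 745), 338 in mixed cultures (151 to 506) and 746 over both (314 to 963), each time at adjusted p, and 0 throughout on mixing of cancer cells.

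Barcode counts turned 4 signs. Lgals4 on mixing of WT cells became 1.86, Lgals3 on mixing of cancer cells -0.83, Lgals9 in pure cancer against pure WT cells 0.070, and Lgals3 in mixed cancer against mixed WT cells -0.31, each with the other sign. On mixing of WT cells Lgals2 became -0.10 with transcript counts, and Lgals4 0.045 with transcript counts, 0.057 with RLE factors, 0.051 at a minimum count of 50 and 0.032 with DESeq2. Barcode counts end at 256, where Lgals3 stood in A04 and Lgals4 in A05, and Lgals4 stood at 253 in A01. The cause of the turned signs was not tested.

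With a library left out, the log2 fold change on mixing of WT cells ran from -6.90 (without A06) to 1.24 (without A01) for Lgals1, from -0.16 (without A06) to 0.86 for Lgals2, from -0.46 to 0.15 (without A02) for Lgals4 and from -0.085 (without A06) to 1.18 for Lgals9. On mixing of cancer cells it ran from -1.65 to 0.079 (without A03) for Lgals2, from -0.33 (without A04) to 0.45 for Lgals3, from -0.99 to 0.33 (without A04) for Lgals4 and from -0.61 to 0.13 (without A08) for Lgals9. For the difference of the changes it ran from -6.17 (without A06) to 1.92 for Lgals1 and from -0.38 (without A04) to 0.90 for Lgals4, and for Lgals9 in pure cancer against pure WT cells from -0.45 to 0.064 (without A01). Without A06 the mixed WT group is A02 alone, which has no Lgals1 read, and the lone library is assumed to vary like the other groups. Lgals9 over both cultures was -0.99 without A02 (edgeR adjusted p = 0.0357) against -0.74 with it (0.161).

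Codes A01 to A04 hold a library of each group, and so do A05 to A08. The labels state no pairing and give the groups no shared replicate numbers, so a fit by well position has no stated pairing behind it. Such a well block (A01 to A04 against A05 to A08), chosen after seeing the data, gave Lgals3 2.49 on mixing of WT cells (edgeR adjusted p = 7.00e-05) and 2.47 for the difference of the changes (0.0221), and it gave Lgals1 0.10 on mixing of WT cells, with the other sign. It also gave Lgals9 -1.26 in mixed cancer against mixed WT cells (0.0405). The block called 119 genes on mixing of WT cells against 39 without it, and 30 against 4 for the difference of the changes. Between cancer and WT cells it called 653 against 524 in pure cultures, 459 against 338 in mixed cultures and 892 against 746 over both. Deviations of the first well from the second correlated by 0.04 to 0.21 between groups over 5264 genes. These are differences of single libraries of unequal depth, so they do not decide whether the wells pair the libraries. Adding reads of Lgals4 and Lgals6 was not run, as Lgals6 was not analysed here.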
